A study of Canis lupus familiaris with 6 samples.

Results

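TAF12 and CHST4 are 2 of the 1437 dog genes that could be named on these arrays. They were chosen by their measured log2 signals between the arms: both were lower with tetracycline than without it at every time measured, including the first, by a difference that did not grow with the late response. The difference and its course over time are therefore given as a description and carry no test. Each gene has 1 probe, printed as 1 spot per array, A_11_P0000023376 for TAF12 (transcript NM_001287043) and A_11_P0000032885 for CHST4 (transcript NM_001287130). Every spot of both genes was well above background, and none was an outlier or saturated, on all 6 arrays.

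The cells were MDCK-II, a dog kidney tubule line that forms polarised epithelial sheets, in the derivative scribKD, made for knockdown of scribble, a scaffold protein of basolateral polarity, when tetracycline is given. One arm was cultured without tetracycline (Tet) and the other with 5 µg/ml, and total RNA was taken at 30, 45 and 60 h. Both arms are scribKD cells, and a Tet-treated arm of cells without the knockdown construct is not analysed here, so the antibiotic and the knockdown cannot be told apart. Each array holds Cy3-labelled RNA mixed from 3 wells of 1 condition, so there is 1 array per arm and time. The labels do not say whether the wells of different times came from separate experiments. The 3 pairs of arrays show the spread of a difference over times, which is not the spread between replicate cultures.

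TAF12 is a subunit of TFIID, the complex that binds core promoters and helps load RNA polymerase II. It carries a histone fold and pairs with TAF4 inside TFIID, and it is also a subunit of the SAGA coactivator complex. CHST4 is a Golgi sulfotransferase that transfers sulfate from the donor PAPS to the 6-position of N-acetylglucosamine on O-linked glycans of mucin-like proteins. It is best known for making the sulfated sugar ligands of the lymphocyte receptor L-selectin on high endothelial venules, and it is also expressed in some epithelia.

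Between 64.3% and 68.8% of non-control spots on an array were well above background, and the 75th percentile of signal lay between 581.4 and 638.8. Values are the scanner program's processed signal, or its log2 minus the log2 of that percentile on the same array (the log2 level). The 30 h pair lies on slide 1 and the 60 h pair on slide 2. In the 45 h pair the array without Tet is on slide 1 and the array with Tet on slide 2. SCRIB has no named probe here, so the depth of the knockdown was not analysed. Of the epithelial markers, CDH1, OCLN, TJP1, CGN, KRT19 and CLDN2 were well above background on all 6 arrays. Of other cell types' markers, COL1A1, COL1A2, PDGFRB, VWF, KDR, CD4 and CD8A were too, and DCN on none. Between the arms, 3 of the 6 epithelial markers (KRT19, TJP1 and CGN) lay lower in each pair by their brightest probe and 1 (OCLN) lay higher, where 21.5% of all tested features were lower and 28% higher at each time. A second TJP1 probe stood at -0.25, 0.12 and 0.24, and a second CLDN2 probe was lower each time. Of the 3 fibroblast markers tested, COL1A1 was higher each time (0.26, 0.70 and 0.82) on 1 probe, its other 3 not being well above background. A second PDGFRB probe was higher each time (0.60, 0.47 and 0.36) where the brightest was not. Of 2 endothelial and 2 leukocyte markers 0 kept a direction. Their part in the results was not tested.

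TAF12 stood at a lower signal with Tet, between 2.13- and 2.20-fold,, by nearly the same amount each time. Without Tet its processed signal was 1156 at 30 h, 972.4 at 45 h and 930.7 at 60 h. With Tet it was 529.6, 459.2 and 417.0 at the same times. All 3 arrays without Tet lay above all 3 with Tet, and the groups did not overlap, which held for 10.2% of tested features in this direction. As log2 levels, the arrays without Tet spanned 0.66 to 0.86 and those with Tet -0.48 to -0.26, which leaves a gap of 0.92 between the nearest arrays of the 2 arms.

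The TAF12 difference, with minus without Tet, was -1.12 at 30 h, -1.09 at 45 h and -1.14 at 60 h on the log2 scale. These are 2.17-, 2.13- and 2.20-fold lower levels. The mean was -1.11 ± 0.02 (SD over 3 time pairs), and the 3 values lie within 0.05 of each other. The scanner program's own error on each spot was 10.0% of the signal, or 0.20 on the log2 scale for a difference of 2 arrays. With 1 spot per array, this is the program's estimate and not a spread between repeated spots. The 3 differences differ from each other by less than this estimate. In RNA of whole cultures, fewer cells that express a gene and less RNA per cell cannot be told apart. The raw signals with no scaling between arrays gave -1.13, -1.08 and -1.16. The pair across slides lay 0.04 above the mean of the pairs within a slide.

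CHST4 was also lower in all 3 pairs, but its difference was less even. Without Tet its processed signal was 907.0 at 30 h, 1092 at 45 h and 1151 at 60 h. With Tet it was 536.6, 491.8 and 669.9. The highest array with Tet, at 60 h, lay below the lowest without Tet, at 30 h. The groups thus did not overlap, which held for 10.2% of tested features in this direction. In log2 levels the arms spanned 0.51 to 0.96 without Tet and -0.33 to 0.20 with it, and the gap between the nearest arrays was 0.30, narrower than for TAF12.

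For CHST4 the difference was -0.75 at 30 h, -1.16 at 45 h and -0.76 at 60 h, or 1.68-, 2.23- and 1.69-fold lower. The mean was -0.89 ± 0.23 (SD over 3 time pairs). The 30 h and 60 h differences, each measured within 1 slide, lay 0.01 apart. The 45 h difference, the one measured across slides, was 0.40 lower than their mean. The scanner error of 1 difference is 0.20, and that of this departure, which combines 3 differences, is larger and was not computed. Over all 27580 tested features this departure of the 45 h pair had an SD of 0.27 and a median of -0.01. A lower one was seen in 2.94% of features, and one larger in absolute size in 7.31%. Whether slide or time sets the 45 h value of CHST4 cannot be told apart with 1 pair. Without that pair the mean is -0.75.

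**Figure D1:**
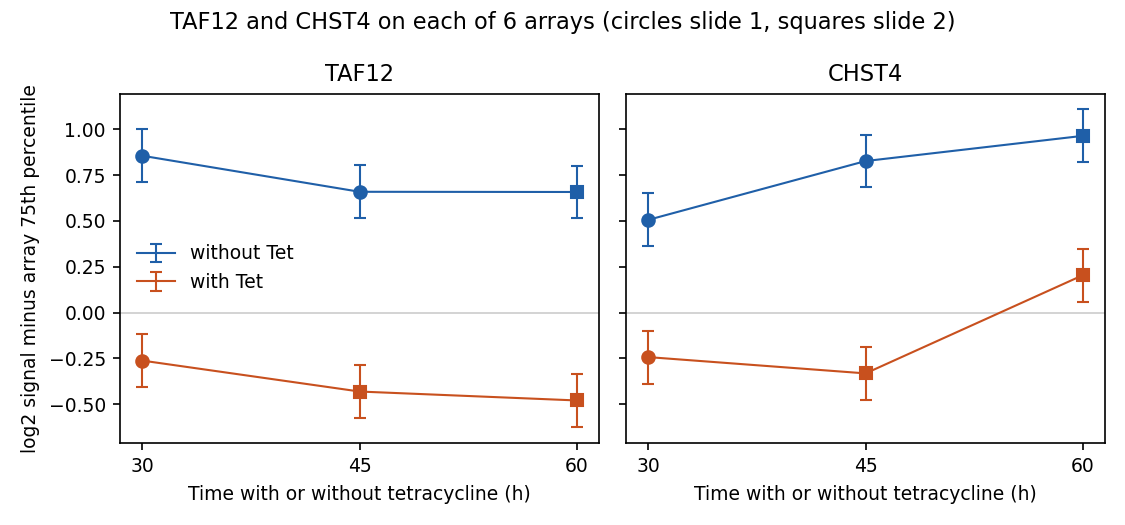
Log2 level (signal minus the array's 75th percentile) of TAF12 and CHST4 against time in h, without Tet in blue and with Tet in orange, 1 array per point; bars are the scanner program's error of the spot, circles are slide 1 and squares slide 2. TAF12 lies slightly lower at 45 and 60 h than at 30 h in both arms, while the arms of CHST4 are farthest apart at 45 h.

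The spread of the differences between the arms over all features widened with time, while TAF12 and CHST4 stood at nearly the same difference at 60 h as at 30 h. The SD of the difference over all tested features was 0.29 at 30 h, 0.36 at 45 h and 0.49 at 60 h. The share of features at least 2-fold lower was 0.656% at 30 h, 1.33% at 45 h and 2.8% at 60 h. With a difference that stayed level, TAF12 moved back in this order, from 0.508% of features lying lower still at 30 h to 1.06% at 45 h and 2.04% at 60 h. For CHST4 the same shares were 1.36%, 0.906% and 5.00%.

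The difference at 60 h less that at 30 h was -0.02 for TAF12 and -0.01 for CHST4. TAF12 and CHST4 are among 219 features lower by at least 0.58 at every time, which is 0.794% of those tested. Since the size and the levelness of the difference are what the genes were listed on, nothing is read from their place among them. Of these 219 features, 12 were named, and 164 (74.9%) were lower at 60 h than at 30 h, with a median move of -0.30. Their median difference was -0.81 at 30 h, -1.18 at 45 h and -1.10 at 60 h. The median range over the 3 times was 0.54, beside 0.05 for TAF12 and 0.41 for CHST4. For 87 of the 219 the 45 h pair gave the lowest value, as it did for CHST4. The matching shares over all tested features were not computed for the 87 or the 164, so nothing is read from either count.

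**Figure D2:**
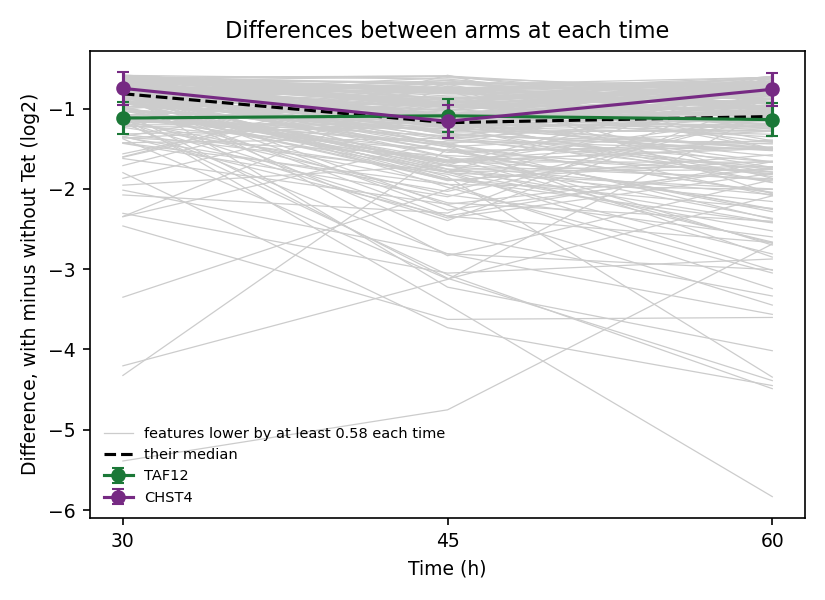
Difference between arms (with minus without Tet, log2) against time in h for TAF12 (green) and CHST4 (purple), with bars for the scanner error of a difference; grey lines are the 219 features lower by at least 0.58 at each time and the dashed line is their median. TAF12 runs level near -1.1 and CHST4 dips at 45 h, while many grey lines go down to 60 h.

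Time in culture, taken over both arms, was not used to list the genes and could be tested. TAF12 was lower at 60 h than at 30 h by a similar amount in each arm, -0.20 without Tet and -0.22 with Tet. Without Tet nearly all of this lay between 30 and 45 h, at -0.20. With Tet -0.17 lay between 30 and 45 h, on arrays of different slides, and a further -0.05 between 45 and 60 h. None of these steps exceeded the scanner error of 0.20 for a difference. Over both arms the change was -0.21 ± 0.08 (SE, 2 arrays per time) on the log2 scale, and it did not pass the threshold (limma, adjusted p = 0.167). An absolute change larger than this was seen in 49.1% of tested features.

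CHST4 was higher at 60 h than at 30 h in both arms, by 0.46 without Tet and 0.45 with Tet, or 1.37- and 1.36-fold. Without Tet the level was 0.32 higher at 45 h than at 30 h and a further 0.14 higher at 60 h. With Tet the level was 0.09 lower at 45 h than at 30 h and then 0.54 higher at 60 h. Over both arms the change was 0.45 ± 0.14 (SE, 2 arrays per time), which did not pass the threshold either (limma, adjusted p = 0.110). In this test 8.15% of all features passed, 3.94% higher and 4.21% lower at 60 h, and neither of the 2 genes did. The 30 h and 60 h arrays lie on different slides. With slide as a term the change of CHST4 became 0.86 ± 0.24 and that of TAF12 -0.25 ± 0.24 (limma, adjusted p = 0.935 and 0.946). The slide term rests on the 45 h pair alone, the only pair across slides. That pair's departure from the other pairs, -0.40 for CHST4 and 0.04 for TAF12, is thereby moved into the time change.

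Few other genes of transcription initiation have a named probe here. Of 15 other TFIID subunits 1, TAF9, was measured, as was 1 of 47 general transcription factors and Mediator subunits, MED7. No SAGA subunit of 18 and no RNA polymerase II subunit of 12 has a named probe. Of 13 activators that work through TFIID, MYC was measured. TAF4, the histone-fold partner of TAF12, is not among the named genes.

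TAF9, a histone-fold subunit found in both TFIID and SAGA, lay on the other side of 0 from TAF12. Its difference was 0.12 at 30 h, 0.36 at 45 h and 0.41 at 60 h, a mean of 0.30 ± 0.09 (SE, 3 pairs), and it did not pass the threshold (limma, adjusted p = 0.170). All 3 TAF9 probes were higher at each time, with means of 0.30, 0.40 and 0.41. MED7, a subunit of the middle module of Mediator, stood at 0.03, 0.08 and 0.28. MYC, a growth-promoting transcription factor, stood at -0.56, -0.35 and 0.68, so its sign turned between 45 and 60 h. The median of the mean difference over all tested features was 0.01. With limma, 0% of all features passed an adjusted p of 0.05 between the arms, while 6432 (23.3%) had an unadjusted p under 0.05, as TAF9 did and MED7 and MYC did not.

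Among carbohydrate sulfotransferases, GAL3ST1 is the only other member, of 33 listed, with a named probe. It makes sulfatide, a sulfated galactolipid abundant in kidney tubule membranes. Its difference was -0.38 at 30 h, -1.07 at 45 h and -1.36 at 60 h, with a mean of -0.94 ± 0.21 (SE, 3 pairs; limma, adjusted p = 0.133). GAL3ST1 and CHST4 had like means but not a like course: GAL3ST1 was lower still at each later time, whereas CHST4 was at nearly the same value at 30 and 60 h. CHST4 was listed for a difference that does not grow, so nothing is read from this contrast. The difference between the 2 courses was not tested. The phenol sulfotransferase SULT1A1, which acts on small molecules in the cytosol, stood at -0.15, -0.56 and -1.06 (mean -0.59 ± 0.19, SE; limma, adjusted p = 0.182). SULT1B1 was not well above background on any array.

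Of the genes that supply the sulfate donor or remove sulfate, those tested had mean differences near 0. Of 24 listed, 9 were named and 6 tested. Their mean differences ran from -0.17 to 0.13 with a median of -0.07, and 0 passed an adjusted p of 0.05 or an unadjusted p of 0.05 with limma, where 0% and 23.3% of all features did. SLC35B2, which carries PAPS into the Golgi, is the only tested gene of donor supply. It was lower each time, at -0.04, -0.16 and -0.29. The lysosomal sulfatases ARSA, ARSB, GALNS, IDS and SGSH had means of 0.01, 0.09, -0.15, -0.15 and 0.13. The cell-surface sulfatases SULF1 and SULF2, and ARSG, were not well above background on any array.

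The proteins that carry L-selectin ligands, and the enzymes that build their O-glycans, were measured for 8 of 33 listed genes. The median of their mean differences was -0.01, and, by the brightest probe of each, 3 were lower and 1 higher at all 3 times, where 21.5% of all features were lower and 28% higher in this way. MUC1, an apical mucin with 1 probe, stood at -0.37, -0.74 and -0.53 (mean -0.55 ± 0.10, SE; limma, adjusted p = 0.118). B4GALT4, a galactosyltransferase that extends 6-sulfated N-acetylglucosamine, stood at -0.29, -0.46 and -0.23 (limma, adjusted p = 0.143). Its other probe was not well above background on any array. Both had their largest difference at 45 h, as CHST4 did, in the pair that spans both slides. In that pair, by their brightest probe, CD34, ST6GALNAC1, FUT7 and PODXL stood above 0, at 0.49, 0.23, 0.16 and 0.13. MADCAM1 and FUT8 stood below 0 there, at -0.09 and -0.15. FUT8, which adds core fucose to N-glycans, stood at -0.23, -0.15 and -0.13 by its brightest probe. Its other probe stood at -0.15, -0.28 and -0.23.

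The sialomucins CD34 and PODXL, which carry L-selectin ligands in endothelium, had means of 0.16 and 0.01 by their brightest probe, each with both signs among the 3 times. The other 2 PODXL probes, well above background on all 6 arrays, were lower each time, at -0.25, -0.61 and -0.64 for one and -0.33, -0.63 and -0.78 for the other, so the probes of PODXL disagree. MADCAM1 stood at a mean of 0.02. FUT7, the fucosyltransferase that completes the ligand, was 0.09, 0.16 and 0.08 higher. The sign of the mean turned under quantile scaling for PODXL and under normexp background correction for MADCAM1, and under no scaling or background alternative for the other genes of these transcription and sulfation lists.

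**Figure D3:**
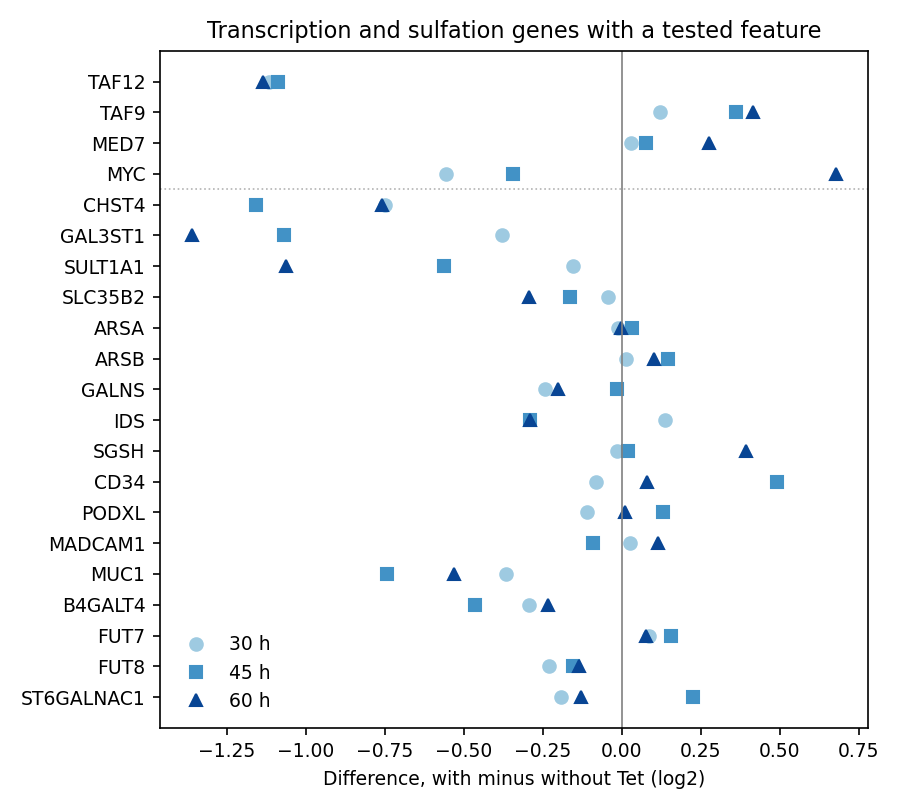
Difference between arms (with minus without Tet, log2) at 30, 45 and 60 h for TAF12 and the other transcription genes measured (above the dotted line) and for CHST4 and the sulfation and O-glycan genes measured (below it), 1 pair of arrays per point. The 3 points of TAF12 nearly coincide, those of GAL3ST1 and SULT1A1 spread toward lower values with time, and most others lie near 0.

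The genes whose log2 levels ran most like those of TAF12 over the 6 arrays were the chemokines CCL8 (Pearson's r = 0.991), CCL20 (0.986) and CCL2 (0.984), then the nucleoside transporter SLC29A1 (0.971). These r values are descriptions, ranked over 997 other named genes; all points share the same 6 arrays and the step between the arms. They share the step between the arms, and neither its size nor its course: SLC29A1 stood at -0.59, -0.81 and -0.98, and CCL8 at -2.30, -3.05 and -2.87. By the distance between the 3 differences themselves, the nearest to TAF12 were SLC6A12 (distance 0.32), CHST4 (0.53), GNAS (0.57), SLC29A1 (0.62) and FXYD6 (0.65). SLC6A12, the betaine and GABA transporter, stood at -0.93, -1.08 and -0.88. The G protein subunit GNAS stood at -0.74, -0.79 and -0.84 by its brightest probe, with its 5 probes between -0.79 and -1.25 in the mean. Its other probes, all well above background on all 6 arrays, moved further down with time. For example, 1 went from -1.04 at 30 h to -1.35 at 60 h and another from -0.71 to -1.18. The course and distance of GNAS thus depend on the probe.

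For CHST4 the highest correlations were with UNK (r = 0.985), MUC1 (0.982), SLC6A12 (0.976), FXYD6 (0.971) and the tight junction protein CGN (0.970). UNK, an RNA-binding zinc finger protein, stood at -0.50, -0.60 and -0.57. In the differences themselves the nearest gene was the growth factor BMP4 (distance 0.14), at -0.63, -1.22 and -0.71. Next came SLC6A12 (0.23), the gap junction protein GJB2 (0.28), FXYD6 (0.30) and GNAS (0.37). GJB2 stood at -0.62, -1.03 and -0.54, and another of its 3 probes was at 0.04 at 30 h. FXYD6, a regulator of the sodium pump, stood at -0.55, -0.95 and -0.86 by its brightest probe. Another FXYD6 probe, well above background on all 6 arrays, stood at -0.55, -0.87 and -0.82. A further one, also well above background on all 6, stood at -0.51, -0.83 and -1.60, so the probes of FXYD6 disagree at 60 h. Its remaining probe was well above background on 2 arrays only. By their brightest probe, BMP4, SLC6A12, GJB2 and FXYD6 each had their largest difference at 45 h, the pair that spans both slides. They were picked for 3 differences close to those of CHST4, so this follows largely from the choice and nothing is read from it. TAF12 and CHST4 correlated with each other at r = 0.836.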

How the data were processed

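Total RNA of 6 samples was measured on 1-colour Agilent arrays of 45220 spots. The deposited scanner files hold intensity from Agilent Feature Extraction 11.5.1.1, per the submitters' processing notes and the file headers, background-subtracted and spatially detrended with no scaling between arrays. Other steps of the authors are not given in the sources used here. Flags in other deposited columns mark spots well above background, saturated or outlying. The deposited series matrix equals the processed intensity times 1 factor per array, between 2.30 and 2.62, whose origin is unknown, with column medians of 150.9 to 171.5, uncentred.

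Outlier spots were left out, spots of a probe averaged, and log2 signal less the array's 75th percentile taken. Probes were named by transcript accession through a RefSeq table of UU_Cfam_GSD_1.0 (names only), which gave 2326 of 43603 probes a symbol; no sequences were used here. Features had to be well above background on all 3 arrays of an arm, with a gene's brightest probe (27580 features, 998 named). limma 3.58.1 in R 4.3.3 fitted arm with time as a 3-level block, and 60 h minus 30 h, with Benjamini-Hochberg adjustment over all features, and was tested on simulated data. The residual degrees of freedom were 2. Samples were grouped by their labelled treatment and time alone. Samples carry no replicate numbers in their labels, and arms were paired by time. The number of arrays limits the precision.

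The 2 genes, the lists and the alternatives were chosen with earlier results of these data known. Named genes were the 2 genes, up to 4 members of a list (all of a list of up to 5), and for each of the 2 genes the 5 named genes with the highest correlation over arrays and the 5 with the smallest Euclidean distance of the 3 differences; further members of the sulfation and O-glycan lists were named after their values were seen. One gene that the rule names is not reported here. The alternatives were quantile and median scaling, series matrix values, normexp (offset 50) on median spot signal, other detection filters, the mean of probes, a trended robust prior, slide as a term, no time term and left-out arrays.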

Additional observations from a re-analysis of the deposited data

Results flagged for a closer look

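The level of CHST4 moved in opposite directions between 30 and 45 h in the 2 arms, by 0.32 on the log2 scale without Tet and by -0.089 with Tet, 1 array at each point. The difference was not tested. The 2 arrays without Tet lie on the same slide, and those with Tet on different slides, so slide and time cannot be told apart in the arm with Tet. The scanner program's error for a difference of 2 arrays was 0.20, larger than the change with Tet.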

How the results depend on the processing

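The difference of TAF12 between the arms ran from -1.13 to -1.01 and that of CHST4 from -0.96 to -0.75 over 8 alternatives each. Among these, the mean of probes and the series matrix values could not move it, with 1 probe per gene and 1 factor per array. The value of TAF12 moved beyond its SD over times with normexp (-1.01). Leaving out a pair gave -1.13 to -1.10 for TAF12 and -0.96 to -0.75 for CHST4. The time changes kept direction and stayed short of the threshold in all 15 alternatives each (adjusted p from 0.101 to 0.946 for TAF12 and from 0.0801 to 0.935 for CHST4, limma). With 1 array left out they ran from -0.22 to -0.19 and from 0.35 to 0.56. The detection filters, the mean of probes, the trended prior and a left-out 45 h array cannot move this estimate for a gene of 1 probe. Series matrix values cannot either, beyond rounding, since the scaling cancels 1 factor per array. In those alternatives the direction was fixed in advance. Features differing between the arms numbered 0, against 126 with normexp, 16 with the trended prior, 17 with no replicate block for time and 6432 at an unadjusted p of 0.05; without a pair they were 0 to 1 (1 without the 30 h pair). Features changing from 30 h to 60 h numbered 2249, against 4101 with normexp, 3771 with the trended prior, and 0 with slide as a term, with no detection filter or without any 1 array. Where a slide term or a left-out array was used, 1 residual degree of freedom remained. At an unadjusted p under 0.05 stood 8670. The 219 features lower at each time became 105 with normexp, 339 with no filter, 40 at a threshold of 1 and 5926 at 0. Apart from these constructions the cause was not tested.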

Other observations

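Within 10 protein-coding or named genes on either side of TAF12 in the RefSeq gene table, named probes cover EPB41, RCC1 and PTAFR, chosen here by position after the values were seen. EPB41, a membrane skeleton protein, stood at 0.21, 0.10 and 0.02 between the arms at 30, 45 and 60 h (limma, adjusted p = 0.420). RCC1, the nuclear exchange factor of the GTPase Ran, stood at -0.08, -0.25 and -0.25 (limma, adjusted p = 0.228). PTAFR did not enter the tests. None of the neighbours of CHST4 within the same reach has a named probe.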
